A study of Rattus norvegicus with 5 samples.

Results

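The comparison described here sets a microRNA (miRNA) array of rat hearts taken 10 days after transverse aortic constriction (TAC) against an array of hearts taken after sham surgery. TAC narrows the aortic arch so that the left ventricle pumps against a raised pressure, and the sham rats had the same surgery without the constriction. Each group was 1 array hybridized with RNA from the hearts of 5 male SD rats, 6 to 8 weeks old and weighing 200 to 300 g by the labels. The 5 hearts of a group share 1 array, so the data give no spread between hearts. The members were all 678 probes whose name marks a rat miRNA, and these 2 arrays were 2 of the 5 in the series. The other 3 arrays, from TAC days 5, 15 and 20, entered the scaling and are quoted only beside values of day 10. The label of the sham sample gives 5 days after surgery, while the header of its intensity column carries day 15, so the sham array may be 5 days earlier or 5 days later than TAC day 10 and is matched to it in time by neither.

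MiRNAs are short RNAs that guide Argonaute proteins to messenger RNAs and repress them. A miRNA finds its targets mainly through its seed, bases 2 to 8 from the 5′ end, and miRNAs with the same seed form a family. A precursor hairpin can give a miRNA from each arm, and older names mark the less abundant arm with an asterisk. In the heart, muscle miRNAs such as miR-1, miR-133a, miR-208 and miR-499 come mostly from cardiomyocytes, while miR-126 is known from endothelium, miR-143 and miR-145 from smooth muscle, and miR-144 and miR-451 from red cell precursors. In bulk heart RNA, fewer cells of a type and less miRNA per cell cannot be told apart.

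The miRNAs that read farthest from sham in both sets of spots include close relatives, so their sequences are shown first. Capitals mark the seed. All sequences and positions are from RefSeq, build GRCr8. Array names were matched through their current arm names, which gave a sequence for 146 of the 197 miRNAs above the detection floor on both arrays. Of the 26 miRNAs that differed in both sets of spots, 20 matched. MiR-30e*, miR-151, miR-30d, miR-124, miR-347 and miR-34b* are named only. The let-7 family shares the seed GAGGUAG. Counted from 1 at the 5′ end of let-7c, with the base of let-7c first, let-7b differs from it by A17G alone and let-7a by G19A alone.
let-7c: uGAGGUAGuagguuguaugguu
let-7b: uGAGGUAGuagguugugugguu
let-7a: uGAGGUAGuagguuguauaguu
MiR-125b-5p and miR-125a-5p share the seed CCCUGAG and are mammalian relatives of lin-4 of the worm, which times development. Counted from the 5′ end without gaps, they differ at 7 of the positions both have. MiR-125a-5p has 24 bases and miR-125b-5p 22, and the extra bases shift the later positions. The count therefore overstates how unlike the 2 sequences are.
miR-125b-5p: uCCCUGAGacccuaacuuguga
miR-125a-5p: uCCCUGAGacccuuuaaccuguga
MiR-144, miR-130a, miR-499 and miR-3571 have seeds of their own among the 26. MiR-1 is shown beside miR-3571 because miR-3571 holds a run of 21 bases identical to the reverse complement of miR-1.
miR-144: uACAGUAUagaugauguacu
miR-130a: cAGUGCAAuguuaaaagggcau
miR-499: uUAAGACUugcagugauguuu
miR-3571: uACACACUucuuuacauuccaua
miR-1: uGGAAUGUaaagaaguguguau

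A miRNA was taken as above the floor of an array when its mean background-subtracted intensity passed the median of the empty and negative-control spots plus 3 median absolute deviations (MAD). The floor was 46.4 units on the TAC day 10 array and 30.6 units on the sham array. On TAC day 10 213 miRNAs passed it, against 236 on sham. Both arrays measured 197 miRNAs, 16 passed on TAC day 10 only, 39 on sham only and 426 on neither. Levels are log2 intensities after background correction and quantile scaling over the rat miRNA spots. A ratio is the TAC day 10 level minus the sham level, so a log2 ratio is relative to all rat miRNAs on the array.

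Each probe had 4 spots, a pair in blocks 1 to 18 and a pair in blocks 19 to 36 of the slide, and the TAC day 10 slide was uneven. On the log2 scale its blocks 19 to 36 were brighter than its blocks 1 to 18, at the median, by 1.04 for rat miRNAs and by 1.88 for the synthetic spike-in RNAs, against 0.13 and 0.21 on the sham slide. Over the 36 blocks, the median miRNA ratio ran between -1.71 and 0.48 in blocks 1 to 18 and between -1.15 and 1.07 in blocks 19 to 36. Spike-in medians ran between -2.49 and -0.15 in blocks 1 to 30, and between -0.13 and 0.79 in blocks 31 to 36. The median SD over the 4 spots of a miRNA, on the log2 scale, was 0.66 on TAC day 10 and 0.11 on sham. The 2 block sets were therefore scaled apart, and the miRNAs put first below differed in each of them. Scaling apart leaves differences between blocks within a set. For example, the median miRNA ratio was -1.13 in block 6 and -1.15 in block 24. A difference in both sets can therefore include a shift of the blocks that hold the probe. Both sets lie on the same 2 slides and carry the same RNA, so their likeness is a repeat within the slide and not a second sample.

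**Figure D1:**
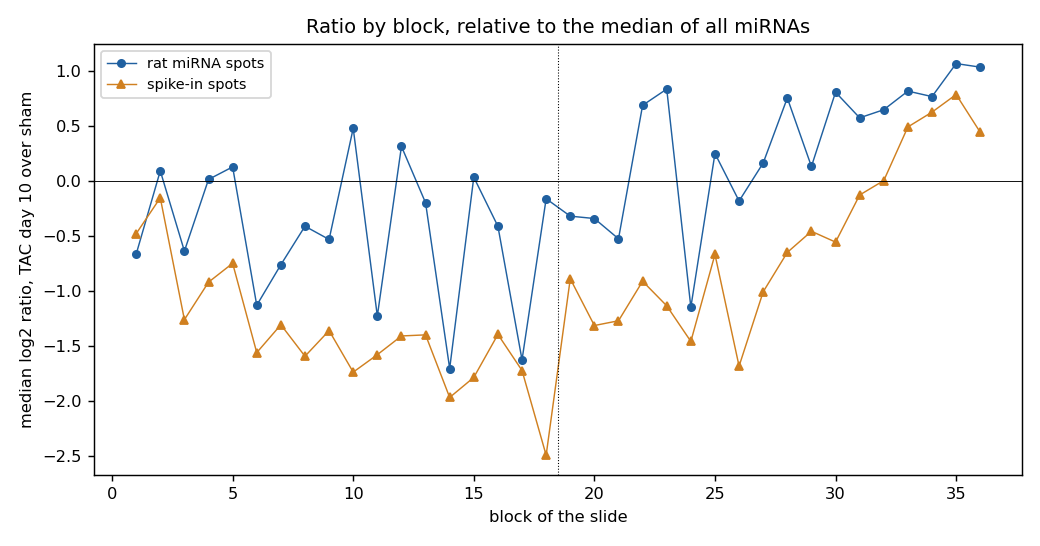
Median log2 ratio, TAC day 10 over sham, of rat miRNA spots (circles) and spike-in spots (triangles) in each of the 36 blocks of the slide, relative to the median of all miRNAs; the dotted line parts blocks 1 to 18 from blocks 19 to 36. Spike-in medians lie between -2.49 and -0.15 up to block 30 and reach 0.79 at block 35.

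Of the 197 miRNAs, 58 differed 2-fold or more between the arrays (29.4%), 27 of them higher (13.7%) and 31 lower (15.7%) on TAC day 10. With quantile scaling over all probes the split was 17 higher and 48 lower. The median ratio was -0.01, with quartiles of -0.62 and 0.67. A 2-fold difference in the same direction in both block sets was found for 26 miRNAs (13.2%), 11 higher (5.58%) and 15 lower (7.61%). The other 32 of the 58 passed 2-fold over the mean of the spots but not in each set. All 4 TAC day 10 spots lay above all 4 sham spots for 58 miRNAs (29.4%) and below them for 20 (10.2%), on the scaled values. This held for 11 of the 11 miRNAs higher in both sets and for 12 of the 15 lower ones. These miRNAs were picked on the same spots, so the separation of their spots is no further support. Over the 197 miRNAs the ratios of the block sets had a Pearson correlation of 0.54 and a Spearman correlation of 0.55 across miRNAs, which share both slides and are not independent replicates, and 141 had the same sign in both sets.

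**Figure D2:**
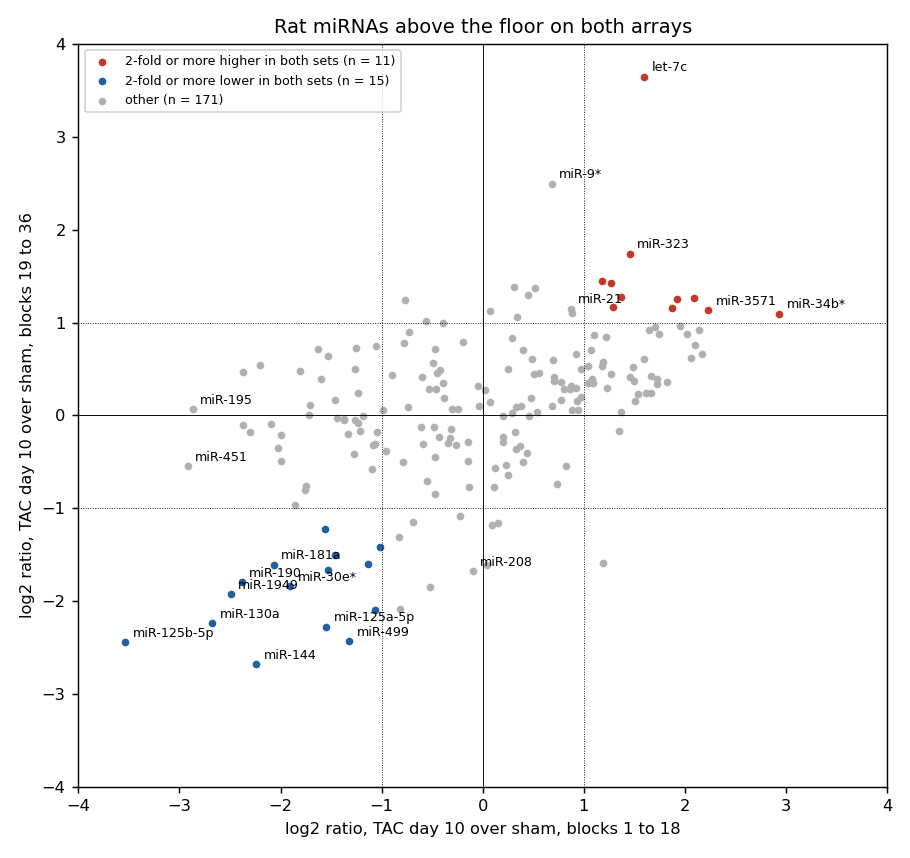
Log2 ratio of TAC day 10 over sham for the 197 miRNAs above the floor on both arrays, in blocks 1 to 18 (x axis) and blocks 19 to 36 (y axis), each set scaled on its own; dotted lines mark 2-fold. The 11 red points, with let-7c at the top, and the 15 blue points, with miR-125b-5p at the far left, lie past 2-fold in both sets, while miR-195 and miR-451 lie far left in blocks 1 to 18 alone.

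Among miRNAs higher on TAC day 10, let-7c stood farthest from sham. The let-7 family is known to restrain proliferation and to increase as cells mature. The 4 spots of let-7c, with the pair in blocks 1 to 18 first here and in all such lists, read 4661, 3948, 12127 and 9089 units on TAC day 10, against 1248, 2857, 370 and 825 units on sham. Every TAC day 10 spot was above every sham spot, and the sham spots themselves differed widely. The log2 ratio was 2.64 ± 0.66 (SE over 4 spots an array), or 6.24-fold, with 1.60 in blocks 1 to 18 and 3.65 in blocks 19 to 36. Among the 58 miRNAs past 2-fold, this was one of the 5 largest differences between the sets. The SE here and below covers spots only and says nothing about hearts.

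Let-7b, which differs from let-7c at a single base, read the other way. Its spots were 1505, 1099, 4086 and 2334 units on TAC day 10, against 4764, 4693, 7017 and 9186 units on sham, with every TAC day 10 spot below every sham spot before scaling and some overlap after it. The log2 ratio was -1.36 ± 0.45, with -1.14 and -1.60 in the 2 sets. One locus of let-7c lies on chr7:118683623-118683717 (+) and that of let-7b follows 327 bases after it on the same strand, and a second let-7c locus lies on chromosome 11. Let-7a, also a base away from let-7c, read 0.63, with 0.92 and 0.30 in the sets. Of the 8 let-7 family members measured, let-7c and let-7e (1.05) passed 2-fold above sham and let-7b passed it below. Of all 197, 13.7% were higher and 15.7% lower. Let-7e gave 0.52 and 1.37 in the sets. It fell short of 2-fold with median scaling (0.88) and with quantile scaling over all probes (0.74). Let-7i read -0.84, let-7f 0.68, and the family median was 0.43. How far each probe also reads its relatives was not tested.

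MiR-34b*, from a family that the tumour suppressor p53 induces, read 5318, 5446, 3219 and 2793 units on TAC day 10, against 944, 989, 1061 and 1053 units on sham. The log2 ratio was 1.87 ± 0.24, with 2.93 and 1.10 in the sets. The groups did not overlap, and the ratio was larger in blocks 1 to 18, unlike that of let-7c. The other strand, miR-34b, was below the floor on both arrays. MiR-34a, the family's most widely expressed member, read -1.27, with -2.00 and -0.49.

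MiR-347 had the tightest spots of all 26. They read 702, 753, 829 and 866 units on TAC day 10, against 136, 139, 160 and 171 units on sham, a log2 ratio of 1.64 ± 0.05. The sets, scaled apart, gave 2.08 and 1.27. The SE is over spots scaled together and does not show this gap.

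MiR-3571 is annotated on chr18:2160316-2160426 (+), where its hairpin overlaps that of miR-1 on the opposite strand over 87 bases, within the span of Mib1. It read 2711, 1653, 1863 and 2345 units on TAC day 10, against 535, 719, 637 and 676 units on sham. The spots did not overlap, the log2 ratio was 1.63 ± 0.14, and the sets gave 2.23 and 1.13. MiR-1 itself, known as one of the most abundant miRNAs of striated muscle, read 12619, 10937, 16585 and 13705 units on TAC day 10, against 14751, 14387, 15395 and 16507 units on sham. Its spots overlapped before scaling and its log2 ratio was 0.30, so the miRNAs of the 2 strands read unlike ratios at this locus.

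MiR-323 and miR-433* belong to the Dlk1-Dio3 region, an imprinted cluster of many miRNAs that is active in development. MiR-323 lies on chr6:134546944-134547029 (+) and read 148, 141, 782 and 767 units on TAC day 10, against 5, 20, 55 and 84 units on sham. The sham pair in blocks 1 to 18 was below the sham floor of 30.6 units, and the pair in blocks 19 to 36 was above it. The log2 ratio was 1.55 ± 0.44, with 1.46 and 1.74 in the sets. The value of 1.46 is thus against sham signal below the floor. Near the floor, ratios are damped by the offset of the background correction. MiR-433*, which lies in the span of the retrotransposon-derived gene Rtl1, read 2859, 2407, 3172 and 3144 units on TAC day 10, against 996, 955, 1146 and 1124 units on sham. Its log2 ratio was 1.40 ± 0.13, with 1.87 and 1.15, and its spots stood clearly apart.

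A list of 77 probes for miRNAs of this region, made by name, held 13 above the floor on both arrays. Of the 13, 3 were 2-fold or more higher and none lower, beside 13.7% higher and 15.7% lower of all 197. They were miR-323, miR-433* and miR-134* (1.05), the last with 1.82 and 0.36 in the sets. MiR-1188-3p is not on the list but lies at chr6:134348153-134348234 (+), between miR-433* and miR-323, and read 1.44, with 2.13 and 0.92. Of the 13 on the list, 12 read above sham, and the median ratio was 0.67, beside -0.01 over all 197. The median was 1.09 in blocks 1 to 18 and 0.35 in blocks 19 to 36, and it was 0.27 once each block's median was subtracted. Another 3 of the region, miR-434, miR-300-3p and miR-770*, passed the floor on the TAC day 10 array but not on sham, and miR-127, miR-329 and miR-539* passed it on sham but not on TAC day 10.

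MiR-340-5p, encoded in the span of Rnf130, read 1367, 1466, 1600 and 1679 units on TAC day 10, against 488, 522, 696 and 240 units on sham, a log2 ratio of 1.52 ± 0.22. MiR-331* read 200, 224, 472 and 523 units on TAC day 10, against 85, 52, 62 and 76 units on sham, a log2 ratio of 1.29 ± 0.23. Neither overlapped sham. The sets gave 1.92 and 1.25 for miR-340-5p, and 1.36 and 1.28 for miR-331*.

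The other 3 miRNAs higher in both sets were miR-124 at 1.29, miR-294 at 1.19 and miR-30d at 1.11. MiR-124 is known as the most abundant miRNA of neurons. Its spots were 149, 240, 603 and 725 units on TAC day 10, against 82, 55, 90 and 98 units on sham. MiR-294 belongs to a cluster known in mouse from embryonic stem cells. MiR-30d comes from a family that is abundant in cardiomyocytes and restrains matrix genes such as Ctgf. Of 5 miR-30 family members measured, miR-30d was the only 2-fold difference, beside 29.4% of all 197, and the family median was -0.18.

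**Figure D3:**
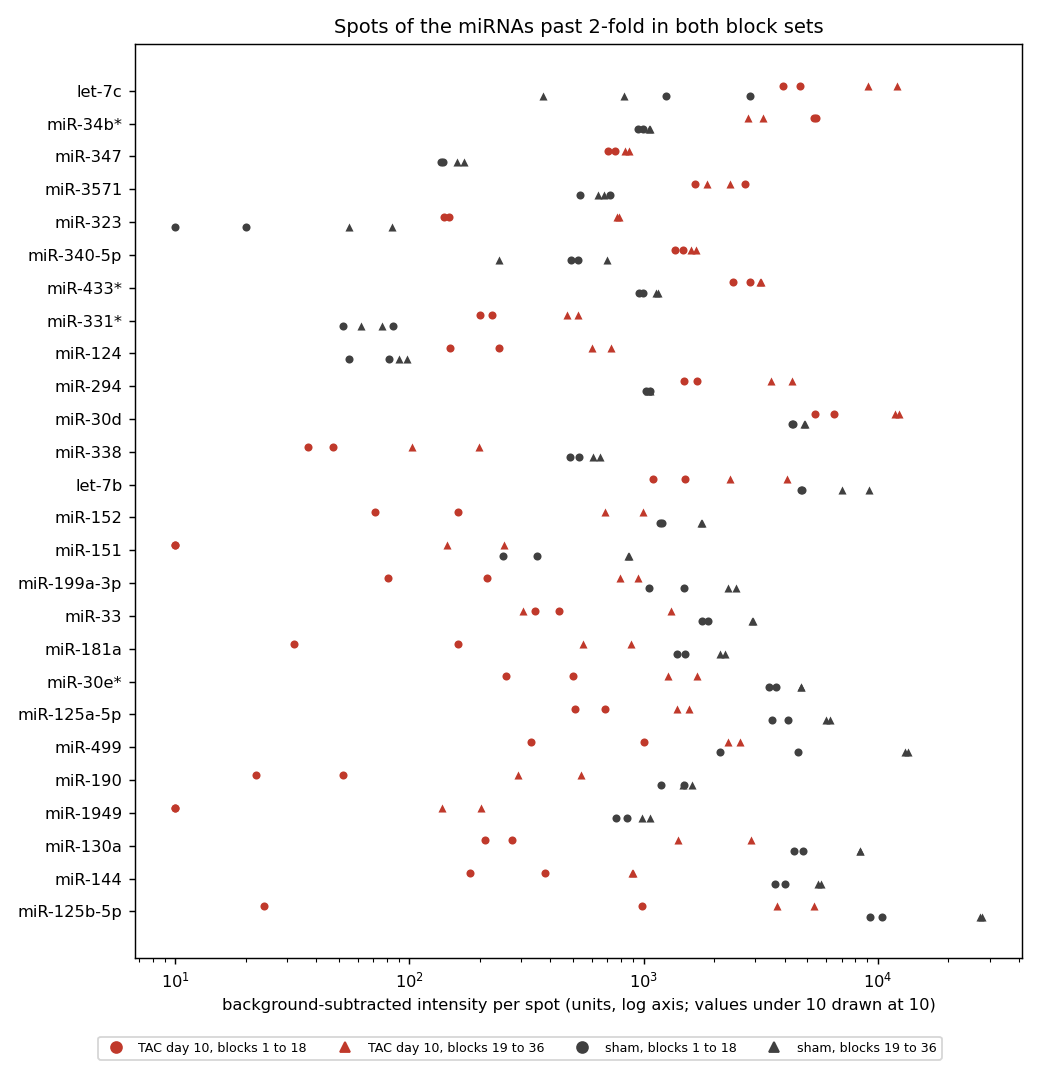
Background-subtracted intensity of each spot (log axis, units) for the 26 miRNAs past 2-fold in both block sets, ordered by log2 ratio with the highest at the top; red marks TAC day 10 and sits above dark grey for sham, circles are blocks 1 to 18 and triangles blocks 19 to 36, and values under 10 are drawn at 10. On TAC day 10 the triangles of most lower miRNAs lie far to the right of the circles, for example 5332 and 3726 against 24 and 980 units for miR-125b-5p.

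Among miRNAs lower on TAC day 10, miR-125b-5p was farthest from sham. It is known to be abundant in fibroblasts and to be needed for their change into myofibroblasts. Its spots read 24, 980, 5332 and 3726 units on TAC day 10, against 10469, 9238, 27439 and 27894 units on sham. The groups did not overlap, and the TAC day 10 spots differed far more among themselves than the sham spots did. The log2 ratio was -3.02 ± 1.13, with -3.54 and -2.44 in the sets.

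Its relative miR-125a-5p read 684, 507, 1389 and 1560 units on TAC day 10, against 3536, 4119, 5984 and 6221 units on sham, a log2 ratio of -1.93 ± 0.35. The sets gave -1.55 and -2.27, and it read -0.85 with block medians subtracted. It lies on chr1:67350675-67350759 (+) in the span of Spaca6, downstream of miR-99b and let-7e in a cluster taken to be transcribed together. The cluster's arms read unlike ratios: 1.33 for miR-99b*, 1.05 for let-7e, -0.60 for miR-99b and -1.93 for miR-125a-5p. In the same way, let-7c and miR-125b-5p lie 44.4 kb apart on the same strand of chromosome 11 and read 2.64 and -3.02, although each has a further locus, for miR-125b-5p on chromosome 8, so the ratios are not those of this locus alone. All 5 measured miRNAs of the miR-125 and miR-99/100 lists read below sham, and 2 were 2-fold or more lower, beside 15.7% of all 197. Their median was -0.81, with -1.45 and -0.38 in the sets.

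MiR-144 and miR-451 are made from a shared transcript in red cell precursors, on chromosome 10 with 90 bases between their hairpins. MiR-144 read 378, 182, 893 and 897 units on TAC day 10, against 3627, 4016, 5558 and 5702 units on sham. The spots were well apart, and the log2 ratio was -2.54 ± 0.38, with -2.24 and -2.68. MiR-451 read 1305, 623, 8544 and 10945 units on TAC day 10, against 13933, 14700, 16036 and 15278 units on sham. Its log2 ratio of -1.83 ± 0.98 was made of -2.91 in blocks 1 to 18 and -0.55 in blocks 19 to 36. So both erythroid miRNAs read 2-fold or more lower over the mean of their spots, and miR-144 alone did so in each set.

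MiR-130a, which shares its seed with miR-301 and is known from endothelial cells, read 210, 273, 2887 and 1405 units on TAC day 10, against 4387, 4795, 8417 and 8418 units on sham. The log2 ratio was -2.46 ± 0.71, with -2.68 and -2.24. MiR-1949 read -43, -46, 202 and 138 units on TAC day 10, against 759, 850, 985 and 1061 units on sham, a log2 ratio of -2.19 ± 0.47. Its pair in blocks 1 to 18 was below local background. MiR-190, in the span of the talin gene Tln2, read 52, 22, 291 and 542 units on TAC day 10, against 1190, 1492, 1479 and 1606 units on sham, a log2 ratio of -2.04 ± 0.48. None of the 3 overlapped sham.

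MiR-499 is encoded on chr3:164570612-164570676 (+) in the span of Myh7b, a myosin heavy chain gene, and is known to help keep slow muscle genes active. It read 329, 1008, 2572 and 2286 units on TAC day 10, against 2126, 4575, 13416 and 13065 units on sham. The spots of the arrays overlapped, since the sham pair in blocks 1 to 18 was low, while each pair was below its own sham pair. The log2 ratio was -1.96 ± 0.77, with -1.32 and -2.43. MiR-499*, the other strand, read -0.86, with -1.09 and -0.58, below sham in both sets and under 2-fold.

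MiR-30e* read 499, 259, 1273 and 1696 units on TAC day 10, against 3433, 3661, 4708 and 4694 units on sham, a log2 ratio of -1.91 ± 0.45. The other 7 miRNAs lower in both sets read between -1.85 and -1.21. They were miR-181a (-1.85), which tunes antigen sensitivity in T cells, and miR-33 (-1.62), which sits in the span of the sterol regulator gene Srebf2 and represses cholesterol export. MiR-199a-3p (-1.56), known to promote cardiomyocyte division in rodents, and miR-151 (-1.48) came next. MiR-152 (-1.46), a repressor of the DNA methyltransferase Dnmt1, lies in the span of Copz2. It shares its seed CAGUGCA with miR-148b-3p, which also read -1.46, but with -0.82 and -2.08 in the sets. With block medians subtracted the 2 were unlike, at -1.90 for miR-152 and -0.39 for miR-148b-3p. Let-7b (-1.36), described above, and miR-338 (-1.21), which in rat neurons represses a cytochrome oxidase subunit and lies in the span of Aatk, completed the group.

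The threshold of 2-fold in each set was crossed narrowly by some miRNAs. Just inside it were miR-338, with -1.02 and -1.42, and miR-33, with -1.07 and -2.10. Just outside were miR-672*, with 1.95 and 0.96, and miR-210, the miRNA most closely tied to hypoxia, with -1.86 and -0.96. MiR-99b*, with 1.70 and 0.95, also fell short in blocks 19 to 36 alone. Among the 58 miRNAs past 2-fold, the sets differed most for miR-195 (-2.87 and 0.07), miR-451, miR-181d (-2.37 and -0.10), miR-15b (-2.30 and -0.18) and let-7c. In the miR-15/16 family, known to restrain cell division, the 5 members measured had a median of -2.20 in blocks 1 to 18 and 0.07 in blocks 19 to 36. Neither miR-195 nor any other member passed 2-fold in both.

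Muscle-enriched miRNAs, all 7 of which were above the floor on both arrays, did not move one way. MiR-206, a skeletal muscle miRNA, was 2-fold or more higher (1.04, with 1.72 and 0.34 in the sets), and miR-499 and miR-208 were 2-fold or more lower. The shares of all 197, 13.7% higher and 15.7% lower, stand beside this count and those of the lists below. MiR-206 fell short of 2-fold with quantile scaling over all probes (0.68) and with block medians subtracted (0.93). MiR-133a read 0.92 ± 0.15, with 1.61 and 0.24, from spots of 46586, 31998, 47646 and 41805 units on TAC day 10, against 27429, 29154, 31974 and 31465 units on sham. MiR-133b read 0.27. The group's median was 0.30, and it was -0.01 with quantile scaling over all probes, under which miR-1 read -0.34 and miR-133b -0.01. With median scaling miR-1 read -0.05.

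MiR-208 and miR-208b-3p are encoded in the alpha and beta cardiac myosin heavy chain genes, whose balance shifts toward beta in loaded rodent hearts. MiR-208 read 31675, 24509, 39243 and 12210 units on TAC day 10, against 47020, 51401, 65418 and 63974 units on sham, and 1 sham spot was at the scanner's ceiling. Every TAC day 10 spot was below every sham spot before scaling, and the log2 ratio was -1.11 ± 0.30, with -0.10 and -1.68. MiR-208b-3p read 1794, 1189, 8173 and 5963 units on TAC day 10, against 1725, 1827, 2148 and 2251 units on sham. Its spots overlapped and its log2 ratio was 0.83 ± 0.69, with 0.31 and 1.39. The 2 miRNAs thus lay on opposite sides of sham in both sets, each past 2-fold in blocks 19 to 36 alone.

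MiR-21, a miRNA of cardiac fibroblasts that is known to increase in hypertrophy, read 3701, 2506, 6549 and 6967 units on TAC day 10, against 2468, 2408, 2554 and 2542 units on sham. Its log2 ratio was 1.03 ± 0.37, with 0.87 and 1.15, so it missed 2-fold in blocks 1 to 18. Over all spots it also fell short with median scaling (0.99), quantile scaling over all probes (0.69) and block medians subtracted (0.60). Of 12 measured miRNAs known from earlier work to rise in pressure-overloaded hearts, 1 read 2-fold or more higher (miR-21) and 3 lower (miR-125b-5p, miR-199a-3p and miR-195), beside 13.7% and 15.7% of all 197. MiR-27a read 0.98, miR-214 -0.16 and miR-24 -0.59. The list's median was -0.43, and it was 0.08 in blocks 19 to 36. Of 9 known to fall, miR-150 was 2-fold or more lower (-1.24) and none was higher, with a median of 0.27. That median was -0.34 when all probes entered the quantile scaling. MiR-29b and miR-29c, which restrain collagen genes, read 0.67 and 0.56. MiR-29a read 0.00, made of opposite values in the sets, 0.83 and -0.55.

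**Figure D4:**
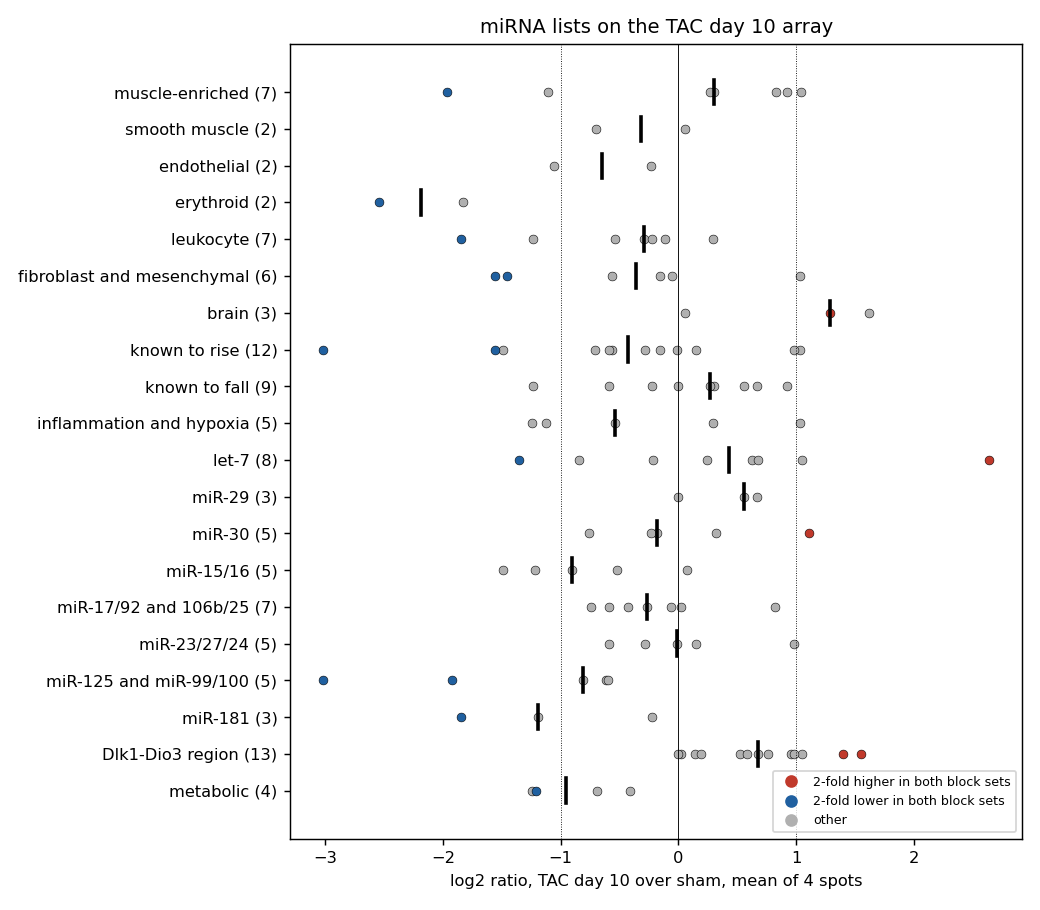
Log2 ratio of TAC day 10 over sham of each miRNA above the floor on both arrays, by list, with the number measured in brackets; black bars are medians, dotted lines mark 2-fold, and red and blue mark the miRNAs past 2-fold in both block sets. The medians run between -2.19 for the 2 erythroid miRNAs and 1.29 for the 3 brain miRNAs, and 12 of 13 miRNAs of the Dlk1-Dio3 region lie above 0.

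Markers of other cell types read as follows, and their part in the results above was not tested. Both endothelial miRNAs read below sham over all spots and above it in blocks 19 to 36. MiR-126 read -1.06, with -1.71 and 0.11 in the sets, and miR-126* read -0.24, with -0.90 and 0.43. MiR-126 had spots of 12443, 4901, 65383 and 65387 units on TAC day 10, against 47524, 48535, 51128 and 54199 units on sham. Its pair in blocks 19 to 36 was at the scanner's ceiling on TAC day 10 and above sham, and its pair in blocks 1 to 18 was below sham. Leaving out the ceiling spots left only the pair in blocks 1 to 18, and the ratio was then -2.37. With the authors' processed values it was -0.36. Of the smooth muscle miRNAs, miR-143 read -0.70, with -1.60 and 0.39, and miR-145 read 0.06. MiR-22, abundant in heart muscle, read -1.36, with -2.00 and -0.22, and 3 of its sham spots and 2 of its TAC day 10 spots were at the ceiling.

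Of 7 leukocyte miRNAs, 2 were 2-fold or more lower, miR-150 and miR-181a, beside 15.7% of all 197. The median of the 7 was -0.29. The myeloid miRNA miR-223 read 0.30, and between -0.56 and 1.01 over the settings other than spike-in scaling. MiR-146a and miR-146b, both induced by inflammatory signals, read -0.54 and -1.13. MiR-146a was below sham in blocks 1 to 18 (-1.63) and above it in blocks 19 to 36 (0.71) and with the authors' processed values (0.16). Of 6 measured fibroblast and mesenchymal miRNAs, 1 was 2-fold or more higher and 2 lower, beside 13.7% and 15.7% of all 197, with a median of -0.36. Among 7 brain miRNAs on the array 3 were measured, and miR-124 and miR-9* were 2-fold or more higher while miR-9 read 0.06. MiR-9* had spots of 65, 84, 1474 and 1673 units on TAC day 10, against 57, 36, 61 and 89 units on sham, a log2 ratio of 1.62 ± 0.77, with 0.68 and 2.50. Its pair in blocks 1 to 18 overlapped sham and its pair in blocks 19 to 36 did not. The liver miRNA miR-122 and all 7 epithelial miRNAs on the array were below the floor on both arrays.

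A miRNA that passed the floor on 1 array only has a bound in place of a ratio, taken against the lowest level among miRNAs above the floor on the other array, or against the miRNA's own level there where that was higher. MiR-375, known from pancreatic islets, was at least 3.24-fold higher on TAC day 10, with spots of 195, 227, 511 and 667 units, against 4, 11, 39 and 34 units on sham. MiR-483*, encoded in mouse within the Igf2 gene, was at least 2.51-fold higher. None of the other 14 that passed the floor on TAC day 10 only reached a bound of 2-fold. Of 39 above the floor on sham alone, 3 were at least 2-fold lower on TAC day 10. They were miR-10a-5p (at least 2.32-fold), miR-542-3p (2.22-fold) and miR-29a* (2.05-fold), and for miR-542-3p the sham excess was in blocks 19 to 36, with 0.11 and -2.24 in the sets.

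Names with an asterisk made up 11 of the 27 miRNAs 2-fold or more higher and 3 of the 31 lower, beside 53 of the 197 measured. Their median ratio was 0.33, against -0.07 for the other 144, and it was 0.46 and 0.25 in the 2 sets, against -0.12 and 0.08. They were also dimmer, with a median sham signal of 232 units, against 939 units for the others. In both block sets, however, only 3 of the 11 higher miRNAs and 1 of the 15 lower ones carried an asterisk. For 30 pairs of strands from a shared hairpin, the asterisked strand had the higher ratio in 18, with a median difference of 0.28. It was higher in both block sets in 13 pairs and lower in both in 6. In 10 pairs the strands lay on opposite sides of sham. MiR-331* and miR-331 read 1.29 and -0.04, miR-9* and miR-9 read 1.62 and 0.06, and miR-30e* and miR-30e read -1.91 and -0.23.

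The TAC day 10 levels are set beside the other arrays for the miRNAs above. All ratios in the series share the sham array, so the levels themselves are given, on the log2 scale. Let-7c read 10.09 on sham and 13.93, 12.73, 11.99 and 10.51 on TAC days 5, 10, 15 and 20. MiR-125b-5p read 13.46 on sham and 10.05, 10.44, 12.00 and 13.19 on the TAC days. Both were nearest to sham on day 20 and farthest on day 5, with day 10 between day 5 and day 15. MiR-144 read 11.95 on sham and 9.85, 9.41, 12.34 and 12.25 on the TAC days, with its lowest level on day 10 and levels above sham on days 15 and 20. MiR-331* read 7.78 on sham and 11.50, 9.07, 8.88 and 8.88 on the TAC days. MiR-208b-3p read 10.86 on sham and 10.64, 11.69, 11.46 and 11.49, higher on day 10 than on day 5. MiR-9* read 7.73 on sham and 8.36, 9.34, 8.37 and 7.91, with its highest level on day 10. With 1 array a day, none of these differences between days has a replicate.

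**Figure D5:**
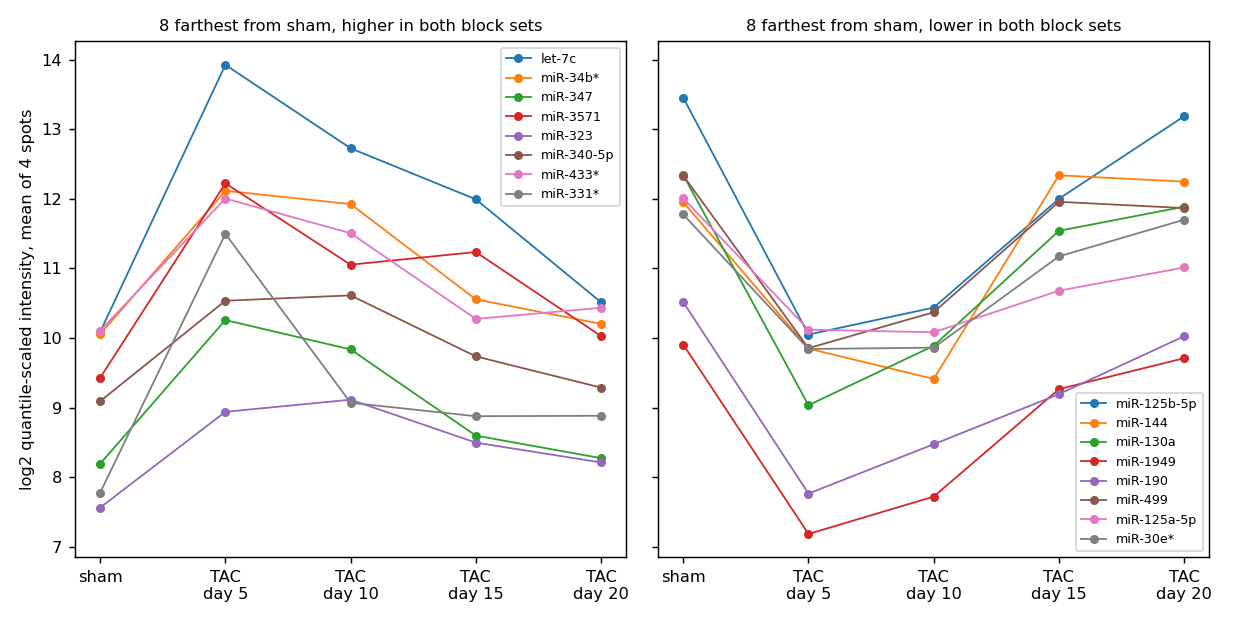
Log2 quantile-scaled intensity (mean of 4 spots) on the sham array and the TAC day 5, 10, 15 and 20 arrays, for the 8 miRNAs farthest from sham on TAC day 10 among those higher (left) and lower (right) in both block sets; 1 array a point. Let-7c stands at 12.73 on day 10 and 10.09 on sham, and miR-125b-5p at 10.44 on day 10 and 13.46 on sham.

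Directions depend on what the arrays are scaled to. Relative to miRNAs, 38 spike-in probes read a median of -1.73 on TAC day 10 over sham. Scaled to the spike-ins, the median miRNA ratio would be 1.73, and 21 of the 58 miRNAs would change sides. All 11 miRNAs higher in both sets would stay above sham, between 2.71 and 4.38, while 9 of the 15 lower ones would stay below it and the others would not, with a range from -1.65 to 0.44. The statement that a miRNA was higher or lower is therefore relative to the other rat miRNAs on the array.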

How the data were processed

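RNA from rat hearts was 3'-end-labelled with Hy3 (1 µg per sample) and hybridized to 1-colour miRNA arrays, per the labels' protocols. The deposited intensity table gives, per the file headers, foreground intensity and background-subtracted intensity for 12312 spots, not normalized between arrays. The authors' processed values are, as found from the values, a ratio of each probe's median signal to 1 constant per array, and served as an alternative. No scanner is named in the sources used here.

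Background was foreground minus the background-subtracted value. Normexp (offset 50), quantile scaling over 678 rat probes on 5 arrays and the mean of 4 spots used limma 3.58.1 in R 4.3.3, and the rest Python 3.11.15. Offset and scaling shrink the ratios of dim miRNAs. The median background was 152 units on TAC day 10 and 104 on sham. MADs were scaled to SD units. With 1 array a side no test was made, the number of arrays limits the precision, and a call is a log2 ratio of 1 or more either way, on 1 array against 1. The block sets were corrected and quantile scaled apart. Background correction and quantile scaling were tested on simulated data with an even shift between the block sets. The simulated slide lacked the differences between single blocks seen on the TAC day 10 slide. Alternatives were median, all-probe and 2-array scaling, scaling within block sets, spike-in scaling, plain or no background subtraction, an offset of 16, the median of spots, no ceiling spots, a floor at 6 MAD or none, the authors' values and each block set alone. Subtracting block medians was chosen after seeing the data.

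The members and the 29 lists were chosen with earlier results of these data known. Named miRNAs are all those past 2-fold in both sets, with spots in full for up to 8 each way; up to 4 per list by size of ratio; 17 cardiac miRNAs chosen by name; up to 5 bounds a side; the 5 of the 2-fold miRNAs whose sets differ most; and strand pairs with a member past 2-fold. Let-7a, miR-34b, miR-146a and the miRNAs near the threshold, with others named for a family, locus or list, were named after their values were seen. Current arm names were assigned from general knowledge, not from the files.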

Additional observations from a re-analysis of the deposited data

Results flagged for a closer look

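The array also carries small RNAs that are no miRNAs, and 1 of them, SNORD3@, read 1647 units on TAC day 10 and 743 units on sham, a median-scaled log2 ratio of 1.01. It was one of 12 such probes above the floor on both arrays, whose ratios ran between -1.96 for SNORD65 and 1.01, with a median of -0.13 and 3 past 2-fold. Among 1900 probes with no name, 391 were above the floor on both arrays, and 101 of these read 2-fold or more above sham and 13 below it. These ratios were taken relative to the median miRNA and were not quantile scaled. With median scaling, the nearest such scale, 32 of the 197 rat miRNAs were 2-fold or more higher and 32 lower.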

How the results depend on the processing

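The count of 58 miRNAs at 2-fold or more (27 higher and 31 lower) and of 26 in both block sets (11 and 15) moved by over 1.5 times under a few settings. With quantile scaling over all probes, which put the median ratio at -0.36, 17 were higher, 48 lower and 4 higher in both sets. With plain background subtraction there were 101 (52 higher, 49 lower), 40 in both sets, 20 of them higher. The authors' processed values gave 42 higher. Spike-in scaling gave 153 (152 higher, 1 lower), and blocks 1 to 18 alone gave 98 (46 higher, 52 lower). The cause was not tested. In blocks 19 to 36 alone miR-126 read 0.11 and miR-195 read 0.067 on the log2 scale, above sham.

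Of the 26 miRNAs, 18 kept their call with median scaling, 7 of the 11 higher and 11 of the 15 lower. With quantile scaling over all probes 19 did, only 4 of the 11 higher but all 15 lower. With block medians subtracted 17 did, 7 higher and 10 lower. A floor at 6 MAD kept 22, and no background correction kept 25. The other 6 settings of this kind kept all 26. Among these, using no floor could only add miRNAs, and leaving out ceiling spots alters no miRNA that has none. Quantile scaling within block sets nearly repeats the main method. Such settings say little about the calls. With block medians subtracted, 5 of the 26 read under 2-fold over all spots: miR-125a-5p (-0.85), miR-338 (-0.94), miR-33 (-0.54), miR-124 (0.78) and miR-30d (0.64). With quantile scaling over all probes miR-294 (0.82) and miR-30d (0.87) did. No paired analysis was possible because there is 1 array a side. The number of arrays and the unevenness of the TAC day 10 slide limit every value, and for miRNAs near the floor so does their signal over background.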
